A study of Apis mellifera with 10 samples.

Results

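Br-c, E74 and E75 are 3 transcription factor genes that insects switch on in response to the steroid hormone ecdysone, and their levels were followed here in antennae of adult honey bees (Apis mellifera). They were found by symbol in the RefSeq gene table of the assembly Amel_HAv3.1, matched to the counted genes by linkage group, start and end, and all 3 of the 12332 counted bee genes so named were matched and tested. As embryos the bees had received either an injection of a CRISPR ribonucleoprotein aimed at orco (group orco_KO, 5 libraries, replicates 3, 5, 9, 11 and 12) or buffer alone (group control, 5 libraries, replicates 3, 4, 5, 6 and 7, cited below as control 3 and so on). Both groups were raised in the laboratory and gave antennae no later than 24 hours after adult eclosion, that is, soon after the last moult. The labels do not say whether a library is 1 bee or a pool, nor what share of cells carried an edit, so each p-value reflects only how these libraries vary, which may be technical.

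In insects ecdysone binds a receptor made of 2 nuclear receptor proteins, Ecr and Usp, and this complex turns on a small set of early genes whose products then control many later ones. In flies and other insects with a complete metamorphosis, Br-c encodes zinc finger proteins with a BTB domain that mark the pupal programme, E74 encodes a protein with an ETS DNA-binding domain, and E75 encodes a nuclear receptor. The pulses of hormone decline before the adult emerges, and the early genes respond both to the presence and to the withdrawal of hormone, so their levels are known to depend on stage.

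Total counts over bee genes ranged from 9497211 to 23453690 in controls and from 8577416 to 18308425 in orco_KO, and the groups did not differ beyond the spread between libraries (two-sided exact permutation test, p = 0.143). Or2, the gene that encodes the orco coreceptor, fell to 22.9 ± 9.33 CPM (counts scaled to the library's TMM-adjusted total; SD, n = 5) in orco_KO from 382 ± 82.6 CPM in controls, and each of the 5 orco_KO libraries lay below every control. The 10 antennal markers listed as a tissue check were all detected, among them the odorant binding protein gene Obp1 at 1907 to 9951 CPM across the 10 libraries. The test took in 9222 genes, and edgeR called 736 of them lower and 421 higher in orco_KO at an adjusted p below 0.05. Controls 6 and 7, the deepest libraries, scored 21.6 and 26.7 on principal component 2 (20.5% of variance). There controls 3, 4 and 5 scored -58.0, -10.9 and -22.4, and orco_KO libraries -15.3 to 17.2. On principal component 1 (37.4%) controls 6 and 7 scored -44.8 and -49.0, controls 3, 4 and 5 -27.0 to -15.1, and orco_KO libraries 15.4 to 52.6.

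The 3 genes differed in where they lie and in how much of their span other genes share. Br-c runs from 3298951 to 3357708 on linkage group 13, E74 from 3327213 to 3476366 on linkage group 3, and E75 from 10210607 to 10372038 on linkage group 11, all on the reverse strand. Reads were counted over the whole gene span, introns included, so unspliced and spliced transcripts, and all promoters of a gene, are summed in 1 value. On their own strand Br-c overlaps only the microRNA gene Mir3782, over 135 bases or 0.230% of its span, and E74 only Mir3716a, over 136 bases or 0.0912% of its span. Both microRNA genes are listed with 0 reads, and they lie wholly inside their hosts, where a read that fits both genes is left out of both. On the opposite strand Br-c overlaps LOC107965398, which held 41 reads in all libraries together and was not tested. E75 overlaps no other gene on either strand.

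Expressed per kilobase of gene span, E75 and E74 were much higher than Br-c. In controls the level was 6.72 ± 4.78 CPM per kb (SD, n = 5) for E75, 3.48 ± 0.850 for E74 and 0.194 ± 0.0561 for Br-c. In orco_KO it was 5.93 ± 0.594 CPM per kb for E75, 4.65 ± 0.351 for E74 and 0.343 ± 0.0324 for Br-c. Br-c was the lowest of the 3 in every library. The order of E75 and E74 was not the same in all libraries: E75 was above E74 in each orco_KO library and in controls 3, 4 and 5, and below it in controls 6 and 7.

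**Figure D1:**
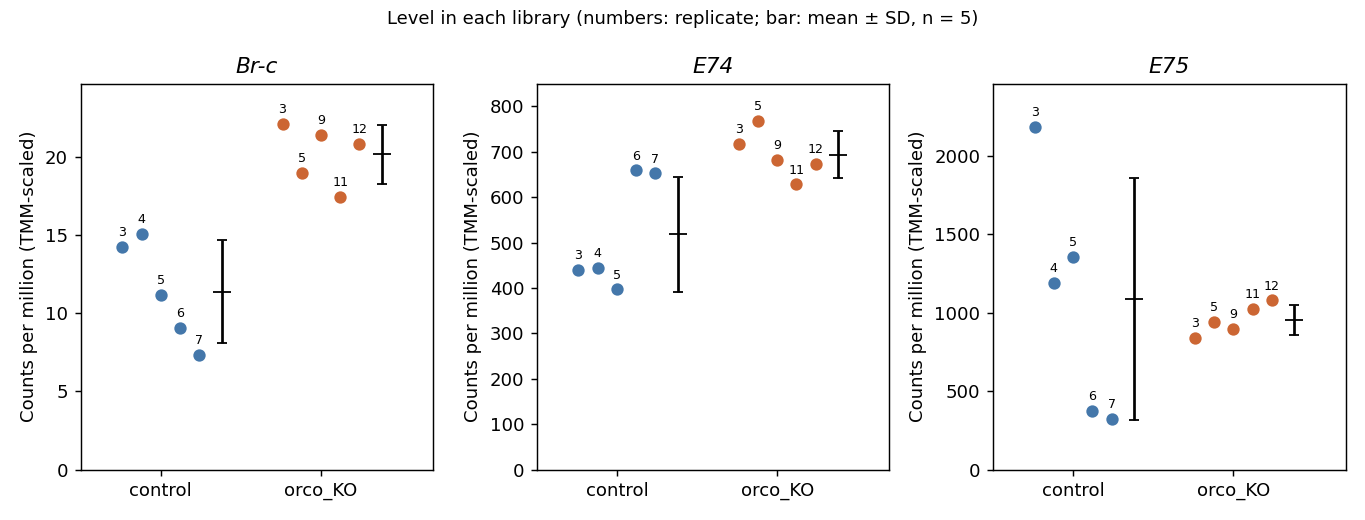
Level of Br-c, E74 and E75 in CPM (vertical axes, each from 0) in each control and orco_KO library; points carry their replicate number and bars give the mean ± SD of 5 libraries. Br-c groups do not overlap, 4 of 5 orco_KO libraries exceed every control for E74, and for E75 all orco_KO libraries lie between control 6 and control 4.

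Br-c, the zinc finger gene of the pupal programme, was higher in orco_KO. It stood at 14.2, 15.1, 11.2, 9.08 and 7.35 CPM in controls 3, 4, 5, 6 and 7, and at 22.1, 19.0, 21.4, 17.5 and 20.9 CPM in orco_KO replicates 3, 5, 9, 11 and 12. Every orco_KO library was above every control, and the lowest values came from controls 6 and 7. The mean rose from 11.4 ± 3.30 to 20.2 ± 1.91 CPM (SD, n = 5), a log2 fold change of 0.84 (SE 0.204, edgeR adjusted p = 0.0150) or 1.79-fold with a 95% interval of 1.32-fold to 2.42-fold. The background was 4.57% of tested genes called higher, and groups did not overlap in 11.2% of tested genes. These values rest on 106 to 415 reads of Br-c a library.

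The increase of Br-c was smaller against the other controls alone. With controls 6 and 7 left out, the log2 difference of Br-c was 0.58 (edgeR adjusted p = 0.0706, SE 0.183), and the call was lost. That fit was chosen with these values known. It leaves out the controls with the least Br-c and so shrinks the difference by construction, and it rests on fewer libraries. Like E74 and E75, whose spans are longer still, Br-c also belongs to the genes with long spans, which as a class were called more often in both directions. Of 790 tested genes that span at least 50 kb, 15.3% were higher and 15.6% were lower, and their median log2 fold change was 0.19, against -0.06 over all tested genes. The part of span in the values of Br-c, E74 and E75 was not tested.

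E74, the ETS factor gene, did not pass the test over all libraries. Its values were 439, 444, 397, 659 and 653 CPM in controls 3, 4, 5, 6 and 7, and 718, 768, 681, 628 and 674 CPM in orco_KO replicates 3, 5, 9, 11 and 12. Only orco_KO replicate 11 fell inside the control range, which controls 6 and 7 extended upward. Means were 518 ± 127 CPM in controls against 694 ± 52.4 CPM in orco_KO (SD, n = 5). The log2 fold change was 0.42 (SE 0.176, edgeR adjusted p = 0.146), or 1.34-fold with a 95% interval of 1.03-fold to 1.74-fold before adjustment. The Wald test of DESeq2 gave 0.48 with an adjusted p of 0.0475, where it called 755 of 11408 genes higher.

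Against controls 3, 4 and 5 alone, E74 was higher in orco_KO by 0.70 on the log2 scale (SE 0.145, edgeR adjusted p = 0.00686), or 1.62-fold. In that fit 2.18% of 9179 tested genes were called higher. This fit was chosen with the values of these libraries known, and it leaves out the 2 controls with the most E74.

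On the opposite strand E74 contains 2 further genes. The long noncoding RNA gene LOC102654462 lies wholly inside E74, from 3377198 to 3406284, and fell to 7.37 ± 1.40 CPM in orco_KO against 14.7 ± 7.22 CPM (SD, n = 5; a log2 fold change of -1.01, SE 0.294, edgeR adjusted p = 0.0378). This call depended on single libraries: it was lost in 7 of 10 fits that left out 1 library, namely those lacking control 4, 6 or 7, or orco_KO replicate 3, 5, 9 or 12, with an adjusted p of up to 0.0981. It was lost too without controls 6 and 7 together (log2 fold change -0.52, adjusted p = 0.247), with no scaling beyond the library total (adjusted p = 0.0706) and by limma-voom (adjusted p = 0.0520). Control 7 held the highest level of this RNA, 26.3 CPM, and control 3 the lowest of the controls, 6.99 CPM, within the orco_KO range of 5.75 to 9.40 CPM. The protein-coding gene LOC725036 was at 21.0 ± 5.75 CPM in controls against 15.5 ± 2.53 CPM in orco_KO (adjusted p = 0.189). Counting used strand, so reads of these genes were assigned apart from those of E74. The share of reads that fell on the wrong strand was not measured.

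E75, the nuclear receptor gene, showed a wide spread among controls and a narrow one in orco_KO. It was at 2185, 1191, 1355, 374 and 321 CPM in controls 3, 4, 5, 6 and 7. In orco_KO replicates 3, 5, 9, 11 and 12 it was at 841, 941, 898, 1025 and 1079 CPM. All orco_KO libraries thus lay above controls 6 and 7 and below controls 3, 4 and 5. The highest control was 6.80-fold above the lowest, while the highest orco_KO library was 1.28-fold above the lowest.

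The means of E75 were 1085 ± 772 CPM in controls against 957 ± 95.8 CPM in orco_KO (SD, n = 5). The log2 fold change was -0.18 (SE 0.415, edgeR adjusted p = 0.832), and its 95% interval ran from 0.475-fold to 1.64-fold, which includes both a loss and a gain. The sign turned with control 3 left out (log2 fold change 0.26) and by limma-voom (0.12). Against controls 3, 4 and 5 alone E75 was lower in orco_KO by -0.72 on the log2 scale (SE 0.197, edgeR adjusted p = 0.0354), or 0.607-fold, where 7.71% of tested genes were called lower. Leaving out controls 6 and 7 removes the 2 controls with the least E75 and so raises the control mean by construction.

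The SD of log2 CPM put numbers on this spread. In controls it was 1.22 for E75, the 240th highest of 9222 tested genes, against a median of 0.40 over all genes. The corresponding values were 0.43 for Br-c and 0.35 for E74, close to that median. In orco_KO the SD was 0.14 for E75, 0.14 for Br-c and 0.11 for E74, all below the median of 0.33, and 90.4% of genes were more variable than E75 there. These ranks take in genes of all levels, those of few reads included, and were not matched for level. E75 was chosen knowing that its controls vary, so this is a description and no test was made.

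**Figure D2:**
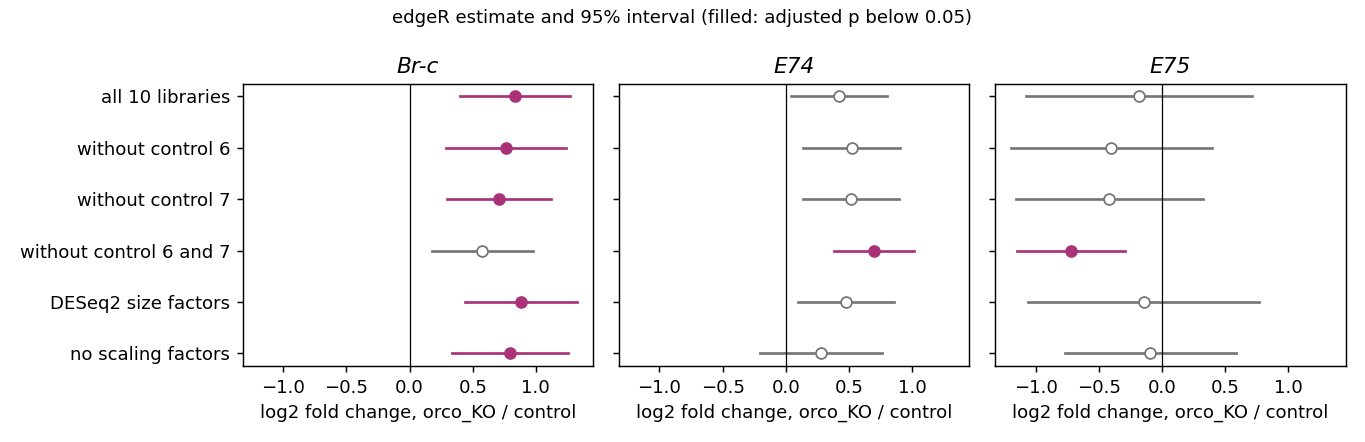
Log2 fold change of Br-c, E74 and E75 in orco_KO over control (horizontal axis) with its 95% interval from edgeR, for all 10 libraries, with controls 6 and 7 left out singly and together, and under 2 other scalings; filled points have an adjusted p below 0.05. With both replicates out, Br-c is 0.58 and not called, E74 is 0.70 and called, and E75 is -0.72 and called.

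Within libraries the 3 genes did not move together. The ratio of E74 to E75, each per kb of span, was 0.218, 0.403 and 0.317 in controls 3, 4 and 5, and 1.91 and 2.20 in controls 6 and 7. In orco_KO it ranged from 0.663 to 0.923, between these sets of controls. The ratio of Br-c to E74 was 0.0627 to 0.0797 in orco_KO, near the 0.0714 to 0.0862 of controls 3, 4 and 5, and it was 0.0350 and 0.0286 in controls 6 and 7. Over all 10 libraries the Pearson correlation of log2 CPM was -0.56 between E74 and E75, 0.55 between Br-c and E75 and 0.31 between Br-c and E74. Without controls 6 and 7 it was -0.78, -0.71 and 0.92 in the same order. Within the 5 controls it was -0.93, 0.89 and -0.81, and within the 5 orco_KO libraries -0.51, -0.53 and 0.31, so the sign held in each of these sets only for E74 and E75. These points share the group difference and the scaling of each library, and no p is attached to them.

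The other matched genes of the ecdysone pathway gave no call by edgeR. Of 37 symbols listed for hormone synthesis, receptors and response factors, 9 were matched, and all 9 were tested, with Br-c, E74 and E75 among them. By edgeR 1 was higher (Br-c), 0 were lower and 8 did not pass, against 4.57% and 7.98% of all tested genes called higher and lower, so 1 call in 9 is near the 12.5% called in either direction. Taking p below 0.05 with no adjustment gave 2 higher and 0 lower. No share over all genes was taken at that unadjusted level, here or below. DESeq2 called 2 higher and 0 lower, and limma-voom 1 higher and 0 lower. Over all genes DESeq2 called 755 higher and 845 lower of 11408, and limma-voom 517 higher and 737 lower of 9222. The median log2 fold change of the 9 was 0.15, and -0.05 without controls 6 and 7.

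Both partners of the hormone receptor were well expressed and did not pass. Ecr, the ecdysone receptor, was at 1839 ± 604 CPM in controls against 2021 ± 478 CPM in orco_KO (SD, n = 5; difference on the log2 scale 0.14, SE 0.237, edgeR adjusted p = 0.768). Its values were 2739, 1662, 2140, 1354 and 1300 CPM in controls 3, 4, 5, 6 and 7, so the lowest of all 10 libraries were again controls 6 and 7. Usp, the partner of Ecr and the insect relative of the vertebrate RXR, was at 445 ± 96.8 and 490 ± 84.1 CPM, and controls 6 and 7 were the lowest here too, at 368 and 331 CPM. Mblk-1, the bee relative of the fly ecdysone response gene E93, was at 7467 ± 3407 CPM in controls against 8813 ± 2021 CPM in orco_KO (adjusted p = 0.669). Its controls were at 12444, 7493, 8776, 4460 and 4165 CPM in replicates 3 to 7, and orco_KO ran from 6988 to 11910 CPM, above controls 6 and 7.

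Of the 9 matched genes, E75, Ecr, Usp, Mblk-1, Br-c and Err had their lowest control values in replicates 6 and 7, while E74 and Kr-h1 had their highest control values there. The gene ecd, described below, was highest there too, at 27.8 and 30.2 CPM. The signs of the fold changes of Ecr, Usp and Mblk-1 turned when these libraries were left out, to -0.11, -0.052 and -0.12 on the log2 scale (edgeR adjusted p from 0.846 to 0.914), so no direction is given for them.

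**Figure D3:**
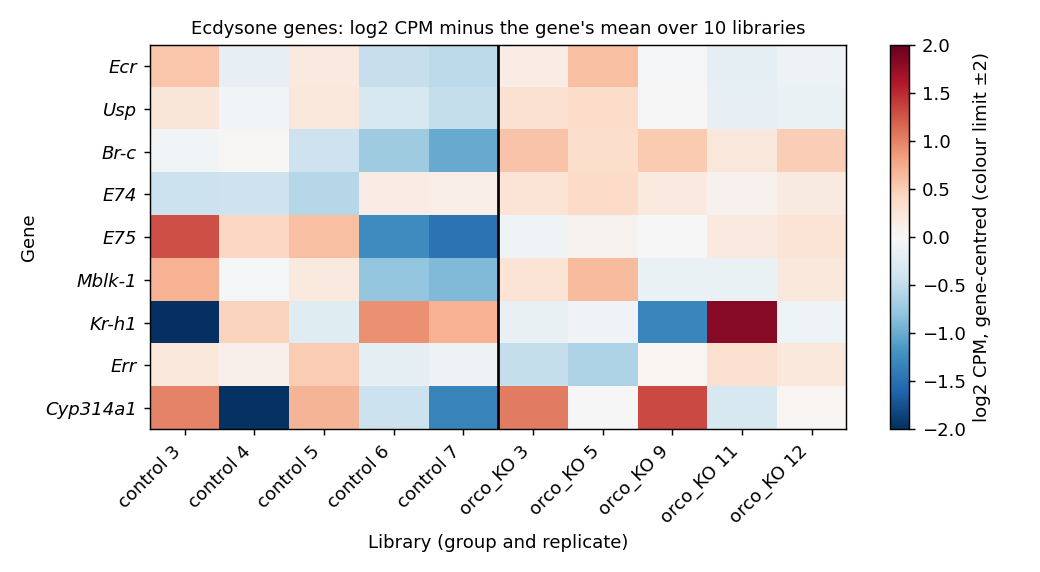
Log2 CPM of the 9 matched ecdysone genes (rows) in each library (columns), minus the gene's mean over the 10 libraries; red is above and blue below that mean, with colours limited at ±2. Ecr, Usp, Br-c, E75 and Mblk-1 are blue in controls 6 and 7, E74 is blue in controls 3, 4 and 5, and Kr-h1 peaks in orco_KO replicate 11.

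The remaining listed genes were low or variable. Kr-h1, a zinc finger gene induced by juvenile hormone, ranged from 2.15 to 16.3 CPM in controls against from 3.51 to 30.6 CPM in orco_KO (edgeR adjusted p = 0.904). Err, the estrogen-related receptor gene, was at 131 ± 26.4 CPM in controls against 115 ± 31.3 CPM in orco_KO (SD, n = 5; adjusted p = 0.622). Cyp314a1, also called shade, makes the active form of ecdysone from its precursor and was near the detection limit at 1.01 ± 0.774 and 1.50 ± 0.760 CPM (adjusted p = 0.488). The gene ecd, needed for ecdysteroid supply in flies and added by symbol after the gene table had been read, was at 23.6 ± 5.85 and 18.4 ± 4.36 CPM (adjusted p = 0.320).

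For juvenile hormone, another hormone of moulting insects, 4 of 14 listed genes were matched and 3 tested. By edgeR 0 were higher and 0 lower, against 4.57% and 7.98% of all tested genes, so few genes could show no departure from these shares. Before adjustment 1 had a higher level with p below 0.05 by edgeR, and neither DESeq2 nor limma-voom called any. The median log2 fold change was 0.30. Jhe, the esterase that breaks the hormone down, was at 139 ± 42.5 CPM in controls against 207 ± 49.6 CPM in orco_KO (SD, n = 5; difference on the log2 scale 0.57, adjusted p = 0.121), and it passed only without control 4 (adjusted p = 0.0484). Vg, the yolk protein gene that juvenile hormone influences in bees, varied from 4.88 to 98.0 CPM in controls against from 19.6 to 80.1 CPM in orco_KO, with the lowest values in controls 6 and 7. The gene LOC724216, listed with the synonym of the methyltransferase JHAMT, held reads in 1 library only, 3 in orco_KO replicate 9. JHBP-1, a binding protein gene added after the table was read, was at 54.1 ± 30.2 and 78.1 ± 29.3 CPM (adjusted p = 0.361).

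Of 12 listed genes for peptides that time moulting and tanning, 5 were matched and 1 was tested. That gene, Crzr, the corazonin receptor, was at 12.8 ± 6.89 CPM in controls against 25.4 ± 14.5 CPM in orco_KO (SD, n = 5; difference on the log2 scale 1.02, SE 0.393, edgeR adjusted p = 0.113). Eth, which encodes the ecdysis triggering hormone, was at 0.387 CPM in controls against 0.345 CPM in orco_KO, and the bursicon genes Burs and Pburs were at no more than 0.926 CPM in any library. Corazonin itself, Crz, had no read in any library, which allows up to 0.0207 CPM over the 10 libraries when 3 counts are taken as the floor.

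Genes with patterns like those of Br-c, E74 and E75 came from different families. Among the 336 tested genes with a name, likeness was the Pearson correlation of log2 CPM over the 10 libraries, which share groups and scaling, and it is given without a p. The closest to E75 were Obp1 (0.96), Obp11 (0.95), Syx1A (0.93), Obp6 (0.91) and Obp5 (0.91), that is, 4 genes of odorant binding proteins, which carry odours in the fluid of the sensilla, and the gene for the membrane fusion protein syntaxin. Obp1 stood at 9951, 5695 and 4686 CPM in controls 3, 4 and 5, at 1948 and 1907 CPM in controls 6 and 7, and at 4035 to 5842 CPM in orco_KO. Without controls 6 and 7 these correlations were 0.73 to 0.84. Within the 5 orco_KO libraries they were lower, at 0.20 for Obp1, 0.15 for Obp11, -0.12 for Syx1A, 0.68 for Obp6 and 0.50 for Obp5, and within the 5 controls they were 0.93 to 0.99. The lowest were Rnft2 (-0.84), FAR1 (-0.80), CPR6 (-0.80), aub (-0.78) and Dop3 (-0.75). By edgeR none of these 10 genes was called, against 12.5% of all tested genes called in either direction. Another odorant binding protein gene, Obp4, singled out after its values were seen, did not share the dip in control 6. It was at 141, 96.1, 64.1, 85.3 and 52.1 CPM in controls 3 to 7, and at 87.1 to 262 CPM in orco_KO. Obp2 was lowest in controls 6 and 7, at 4029 and 4204 CPM.

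The named genes closest to E74 were CPR27 (0.94), Cpap3-d (0.91), Cpap3-c (0.91) and CPR14 (0.89), 4 of the 20 matched cuticle genes, and the ribosomal protein gene RpL35 (0.78). Other cuticle genes did not follow E74: CPR3, singled out after its values were seen, was highest in controls 3, 4 and 5, at 25.6 to 41.0 CPM, and lowest in orco_KO, at no more than 16.3 CPM. CPR27 was at 16.5, 13.9 and 10.8 CPM in controls 3, 4 and 5, at 34.5 and 39.5 CPM in controls 6 and 7, and at 27.8 to 63.1 CPM in orco_KO. The most opposed were AChE-2, the acetylcholinesterase gene (-0.94), Pkc, a protein kinase C gene (-0.91), NFRKB (-0.91), Prpf3 (-0.89) and the active zone gene brp (-0.88). Over the 8 libraries without controls 6 and 7, which still carry the group difference, the 4 cuticle genes had correlations of 0.89 to 0.98 and the 5 opposed genes of -0.95 to -0.87. Within the 5 orco_KO libraries the cuticle genes were at 0.56 to 0.95, while 3 of the opposed genes had the other sign, brp at 0.76, Pkc at 0.31 and NFRKB at 0.11. Of the 10 genes, Cpap3-d rose by 0.89 (adjusted p = 0.0190, but 0.112 with no scaling beyond the library total), and AChE-2, brp and Pkc fell by 1.66, 1.90 and 0.96 on the log2 scale (edgeR). Pkc lost its call in 6 of 10 fits that left out 1 library, namely those lacking control 3 or 5, or orco_KO replicate 3, 9, 11 or 12, with an adjusted p of up to 0.0850. Since the 10 genes were picked by correlation over libraries that carry the group difference, their calls are no separate support for E74. Over all tested genes 12.5% were called in either direction.

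Br-c was closest to Emc (0.93), a gene for a helix-loop-helix inhibitor, the microRNA gene Mir6042 (0.92), the Pax family gene Eyg (0.89), the cuticle gene CPR11 (0.89) and the acetylcholine receptor subunit gene nAChRa1 (0.88). Without controls 6 and 7 these correlations were 0.63 to 0.84, and within the 5 orco_KO libraries 0.31 to 0.43. Emc rose from 70.4 to 115 CPM (log2 fold change 0.71, SE 0.169, edgeR adjusted p = 0.0128), and like Br-c it lost its call without controls 6 and 7 (adjusted p = 0.0733). Mir6042, Eyg and CPR11 also rose, and each lost its call in that fit. Eyg passed in only 2 of 10 fits that left out 1 library, and Mir6042 in 8. The most opposed were the glutamate receptor gene Glurb (-0.91), egh (-0.91), the odorant receptor gene Or37 (-0.88), nAChRa3 (-0.88) and the protein kinase gene For (-0.88), with values within orco_KO from -0.76 for Glurb to -0.0083 for egh. Glurb fell by 1.89, Or37 by 1.95 and nAChRa3 by 0.65 on the log2 scale (edgeR), and of these Or37 lost its call without controls 6 and 7 (adjusted p = 0.0754). All these genes were picked by their correlation with Br-c, which differed between the groups. Their calls and lost calls thus follow in part from that choice and are no separate support for Br-c. Over all tested genes 12.5% were called in either direction.

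**Figure D4:**
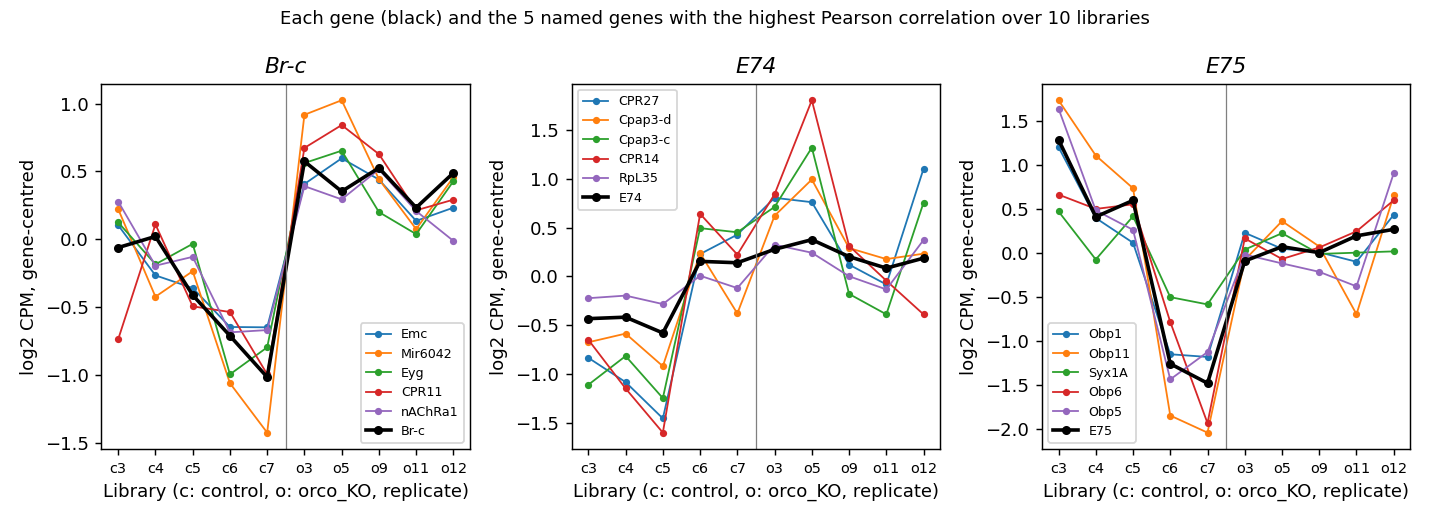
Log2 CPM minus the gene's mean (vertical axes) in the control (c) and orco_KO (o) libraries for Br-c, E74 and E75 (black) and, in colour, the 5 named genes with the highest Pearson correlation with each. Libraries are joined only to show each gene's profile; E75 and its like genes dip in c6 and c7, and E74 and its like genes are low in c3, c4 and c5.

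Markers of the cell types an antenna can hold moved with the libraries as well. The summed level of the 7 matched neuron markers was 11256 to 18377 CPM in controls 3, 4 and 5, 7962 and 7640 CPM in controls 6 and 7, and 4340 to 6429 CPM in orco_KO, and 6 of 7 fell at an edgeR adjusted p below 0.05, where 7.98% of all tested genes were lower. Syx1A and brp, named above, are among the 7. The 10 antennal sensory organ markers, mostly binding proteins, summed to 17054 to 35019 CPM in controls 3, 4 and 5, to 8542 and 9118 CPM in controls 6 and 7, and to 14778 to 24548 CPM in orco_KO. Obp1 and Obp2 gave most of this sum, with 9951 and 17790 CPM in control 3. Of the 10, 0 were higher, 2 were lower (Or2 and Or11) and 8 did not pass by edgeR, against 4.57% higher and 7.98% lower over all tested genes. The 20 matched cuticle genes, of which 16 were tested, summed to 676 to 856 CPM in controls 3, 4 and 5, to 1718 and 1520 CPM in controls 6 and 7, and to 1335 to 3950 CPM in orco_KO. Of the 16, 3 were higher, 1 was lower and 12 did not pass, against 4.57% higher and 7.98% lower over all tested genes. CPR14 alone gave much of this sum, with 474 CPM in control 3, 1157 CPM in control 6 and 2585 CPM in orco_KO replicate 5. The lower gene was CPR3, which fell to 0.447-fold (edgeR adjusted p = 0.00328). The part of these markers in the values of Br-c, E74 and E75 was not tested, and in whole antennae fewer cells of a type cannot be told from less RNA per cell.

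Other markers were lower or less regular. The 7 matched muscle genes summed to 1978 to 3995 CPM in controls against 2636 to 6874 CPM in orco_KO, with 1 higher and 1 lower, against 4.57% and 7.98% of all tested genes. The single matched glial marker, Eaat-2, was at 6.24 to 9.14 CPM in controls against 0.232 to 1.60 CPM in orco_KO. Fat body and hemolymph genes summed to 181 to 464 and 240 to 522 CPM, and eye opsins to 3.09 to 9.24 and 5.75 to 13.3 CPM. The 12 matched mitochondrial genes summed to 65.3 to 246 CPM in controls against 206 to 453 CPM in orco_KO, and were lowest in controls 6 and 7.

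**Figure D5:**
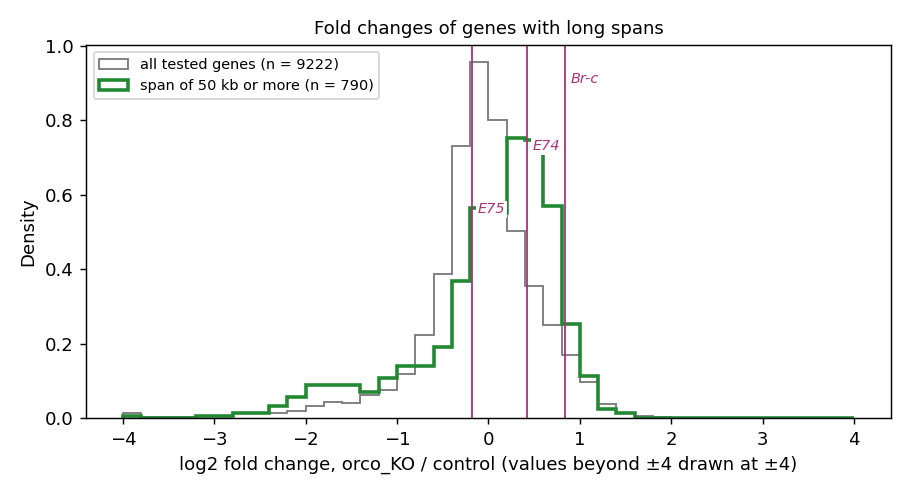
Distribution of log2 fold changes (horizontal axis, orco_KO over control; vertical axis, density) for all 9222 tested genes and for the 790 with a span of at least 50 kb, with Br-c, E74 and E75 marked by vertical lines. The long genes have a median of 0.19 against -0.06 over all genes, and Br-c at 0.84 lies toward the upper edge of both curves.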

How the data were processed

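Values are raw counts of reads for each gene, as the authors deposited them, 1 file per library. Per the submitters' processing notes reads were aligned with STAR 2.7.3a, and per the file headers counted with featureCounts (Subread 2.0.0) against Amel_HAv3.1 plus virus genomes, with strand setting 2 and the gene span as feature, without options for multiply mapped or overlapping reads. The headers name the alignment of read 1. The labels give polyA RNA, while the protocol describes removal of ribosomal RNA before a stranded library kit. Of 12337 features, 5 are virus genomes and were left out of totals; 12325 bee genes matched the RefSeq table.

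The counts were tested with edgeR 4.0.16 under R 4.3.3 (filterByExpr, TMM, quasi-likelihood test, group only, Benjamini-Hochberg over 9222 genes, threshold 0.05). CPM use TMM-scaled totals; log2 CPM use a prior count of 2. DESeq2 1.42.0 and limma 3.58.1 were alternatives, and the fit was tested on simulated data. The smallest chi-square per gene between 2 libraries of a group was 27.2, so none is a duplicate within sampling noise. Intervals and floors cover counting and library spread only, as reads carry no molecular identifiers.

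The 3 genes, lists and libraries left out were chosen with earlier results of these data known. Named genes are the 3, all matched hormone list members, genes overlapping them, the 5 named genes most and least correlated with each, and Or2; ecd and JHBP-1 were added later.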

Additional observations from a re-analysis of the deposited data

Results flagged for a closer look

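In orco_KO replicate 11, Kr-h1 was at 30.6 CPM, far from the other orco_KO libraries, the next of which was at 8.19 CPM. In the same library Crzr was at 50.7 CPM, and the next was at 23.2 CPM. Both stood out because the gap to the nearest library, divided by the range of the group, was above Dixon's critical value of 0.710 for 5 libraries. In all, 28 groups of 5 values were checked, and chance flags about 1 in 20. Br-c, E74 and E75 were not among them: the low E75 values of control replicates 6 and 7 lie close to each other, and this measure looks at a single library.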

How the results depend on the processing

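With control replicates 6 and 7 left out together, Br-c was 0.58 and no longer called, E74 was 0.70 and E75 -0.72 on the log2 scale, both now called, 1 of the 9 ecdysone genes was lower, and 200 genes were higher and 708 lower in all. Ecr (-0.11), Usp (-0.052), Mblk-1 (-0.12) and Vg (-0.31) turned negative there. DESeq2 called E74 (0.48), 2 ecdysone genes and 755 higher genes. By limma-voom the log2 fold change was 0.12 for E75 and -0.26 for Kr-h1. Fits without 1 library gave 0.71 to 0.96 for Br-c, 0.34 to 0.52 for E74, -0.42 to 0.26 for E75, -0.61 to 0.39 for Kr-h1 and -0.037 to 1.18 for Vg, and 250 to 684 higher and 589 to 791 lower genes; Br-c was called in all 10. Higher genes numbered 684 without control 3, 250 without control 6 or orco_KO replicate 3, and 276 without control 7. Lower genes made up 63.6% of calls by edgeR over all libraries and 52.8% by DESeq2. The groups share replicate numbers 3 and 5 only, and nothing says they pair bees (correlation of deviations 0.08 and 0.14). With the number as replicate block, only replicates 3 and 5 of each group inform the group difference. Every other library fills a block of its own and drops out of it. In that fit Br-c was 0.70 (edgeR adjusted p = 0.305), E74 0.83, E75 -0.95, Crzr -0.31, Cyp314a1 -0.30 and Vg -0.14. By it 0 ecdysone genes were higher and 1, Err, was lower, where 375 of 9222 tested genes were higher and 595 lower. The p-values of this fit rest on very few libraries. The block fit thus compares fewer libraries than the main fit, and the cause of the shifts in the remaining fits was not tested. The other scalings and filters, the robust fit and the virus reads in the totals left Br-c called and E74 and E75 not called.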

Other observations

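The 5 virus genomes counted with the bee genes drew few reads, with 1 exception. Control replicate 6 held 2813 virus reads, or 0.0130% of its total, and the other 9 libraries held 2 to 134. Control replicate 7 held 58. The part of virus reads in the values of Br-c, E74 and E75 was not tested.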
